A study of Sus scrofa with 48 samples.

Results

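The liver transcriptomes compared here came from 24 of the 48 pigs of the study, those fed the low-fat low-fiber (LF) diet, and the members were taken from the sample titles: 12 pigs of the low residual feed intake (RFI) line and 12 pigs of the high RFI line. RFI is the difference between the feed a pig eats and the feed predicted from its growth and body composition, so a low RFI pig eats less than its performance predicts. All pigs were purebred Large White barrows (castrated males) from lines divergently selected for RFI over 8 generations, were offered feed ad libitum, and entered the dietary trial at 74 d of age. The other 24 pigs, 12 per line, received a high-fat high-fiber (HF) diet. They are used below only as separate animals in which the same line comparison could be read. Each array was hybridised with Cy3-labelled RNA from the liver of a single pig, so the samples are separate animals. Because the lines were bred apart, the effects of RFI itself and of other differences in genetic background cannot be told apart.

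The liver makes most plasma proteins, oxidises and exports lipids, conjugates and clears foreign compounds, and hosts resident macrophages (Kupffer cells). Paraoxonases are lactone-hydrolysing enzymes. PON1 and PON3 are made in the liver and carried on high-density lipoproteins (HDL), whereas PON2 stays within cells. Alpha-class glutathione S-transferases (GST) are abundant cytosolic liver enzymes that couple glutathione to electrophiles and reduce lipid peroxides.

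Values are log2 intensities relative to the median of each array (0 is the median probe), and a log2 fold-change is the mean of the low RFI line minus that of the high RFI line. Between 65.8% and 76.7% of spots per array were well above background, each array correlated with the other LF arrays at a mean r of 0.98 to 0.985, and the array medians of the lines differed by 0.04 on the log2 scale (2-sided permutation test with 100000 resamples, P = 0.658). Among the 10 hepatocyte markers searched, 8 were measured, and all of these were above background on every LF array. Albumin (ALB) lay at a mean of 10.97 in both lines, with an SD over 12 pigs of 0.19 in the low and 0.16 in the high RFI line.

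The line changed a small share of the liver transcriptome under the LF diet. Of 42862 probes tested with limma, 134 (0.313%) were over-expressed and 160 (0.373%) under-expressed in the low RFI line at a Benjamini-Hochberg adjusted P (P-BH) of 5%. The FC exceeded 2 for 101 of these 294 differentially expressed probes (DEP), 49 up and 52 down, and stayed below 1.5 for 92 of them. A total of 171 DEP carried no gene symbol, and the others named 90 genes, 42 of them over-expressed and 48 under-expressed. With the cut-offs of the study (P under 0.01 and FC over 1.1), 1505 probes (3.51%) were called, 724 up and 781 down. Taking 1 probe per gene, the brightest, the median log2 fold-change over 10101 genes was 0.00, and 65 genes (0.644%) passed a P-BH of 5%.

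**Figure D1:**
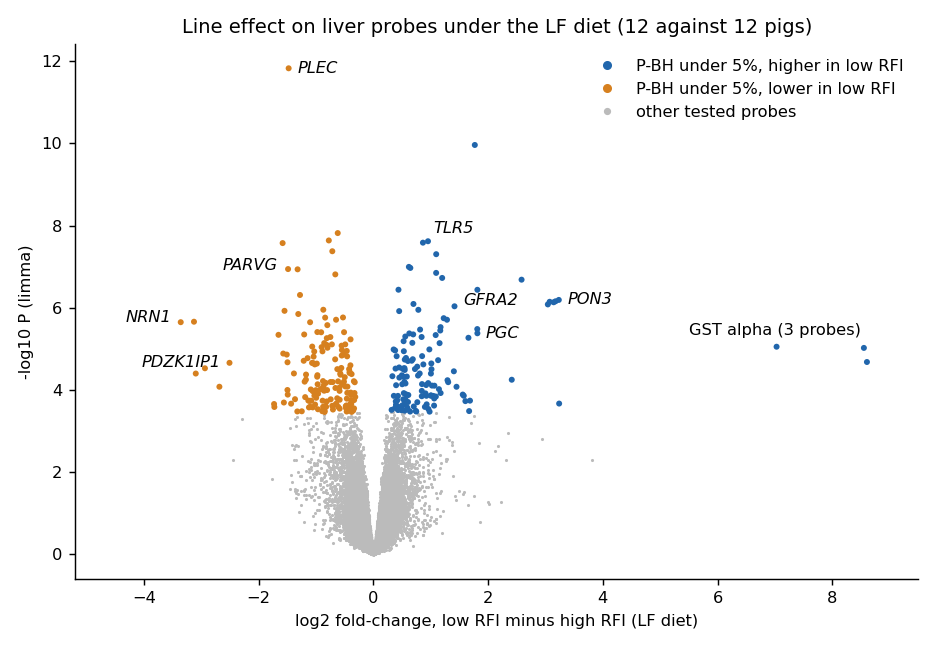
Each point is 1 of 42862 probes: the x axis gives the log2 fold-change (low minus high RFI line, LF diet, 12 against 12 pigs) and the y axis the -log10 P of limma. Coloured points are the 134 higher and 160 lower probes at a P-BH of 5%: 3 GST alpha probes lie farthest to the right, and PLEC has the highest -log10 P.

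The strongest difference in size was found on GST alpha probes. The array holds a pair of probes for LOC100526118, annotated as GSTA1-like and placed next to GSTA1 and GSTA4 in the RefSeq gene order of Sscrofa11.1. Another probe is annotated as GST alpha M14. These probes carry no gene symbol and were chosen after their values were seen. The pair overlaps in 46 bases, and the first 30 of those are shown, in capitals, because both readings rest on them:
GSTA1-like, first 30 bases of the shared stretch: GGTGTAGAAATTCAAATCTGACAATTGTAG

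On GSTA1-like probe A_72_P517950, well above background on all 24 arrays, the low RFI pigs ranged from -2.63 to 7.66 with a median of 6.85. The high RFI pigs ranged from -3.41 to 6.96 with a median of -2.27. The signal lay at either a high or a low level. In the low RFI line, 10 of 12 pigs lay at 6.47 or above and the other 2 at -2.50 or below. In the high RFI line, 1 of 12 pigs lay at 6.96 and the other 11 at -1.42 or below. The same 11 pigs were high on all 3 probes. Whether these probes read 1 transcript, and whether they bind the alleles of all pigs equally, was not tested. The log2 fold-change was 7.03 (SE 1.26, P-BH = 0.00541, limma) on this probe, 8.60 (SE 1.65, P-BH = 0.009) on its overlapping partner and 8.55 (SE 1.54, P-BH = 0.00554) on the GST alpha M14 probe. The last values depend on dim readings, because the partner was above background in 10 low RFI and 2 high RFI pigs. These 12 arrays are the fewest the filter allows, so the partner was tested mainly through the line in which it is high. Its P-BH is no separate support. The fold-change thus reflects how many pigs of each line had the high level, not a shift shared by all pigs of a line. The 7 probes for GSTA1, GSTA2 and GSTA4 ranged from -0.47 to 0.10, and none was called (smallest P-BH = 0.544).

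The paraoxonase genes neighbour each other in the order PON1, PON3, PON2. PON3 was over-expressed and PON2 under-expressed in the low RFI line. The brightest PON3 probe (A_72_P385478) is named PON3 through its RefSeq accession, whereas the array itself calls it PON1. On it, low RFI pigs ranged from 7.75 to 8.84 with a median of 8.37, and high RFI pigs from 3.15 to 7.78 with a median of 4.51. The groups overlapped only through the top of the high RFI line, in which 8 pigs lay at 4.84 or below and 4 pigs at 6.68 or above. The log2 fold-change was 3.04 (SE 0.467, FC = 8.22, P-BH = 0.00136). The other PON3 probes gave 3.14, 3.07 and 3.23, and the same 8 high RFI pigs were low on all 4.

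A second probe that the array names PON1 (O12638), with no RefSeq name to set against it, also followed PON3 rather than the probe that RefSeq names PON1. It ranged from 6.99 to 8.06 (median 7.59) in the low RFI line and from 2.18 to 7.02 (median 3.64) in the high RFI line, with a log2 fold-change of 3.17 (SE 0.483, P-BH = 0.00131). Across the 24 pigs its difference from the brightest PON3 probe had an SD of 0.0927, against 0.102 for a probe that the array itself names PON3 (A_72_P182996), up to 0.254 for the other PON3 probes and 2.11 for the RefSeq-named PON1 probe (A_72_P035606). The latter spanned 5.58 to 6.30 in the low RFI line and 5.39 to 6.72 in the high RFI line, and was not called (log2 fold-change -0.20, P-BH = 0.737). Only the latter is therefore read as PON1 here. The probe sequences, as the array holds them, are shown because the naming decides whether 1 or 2 HDL paraoxonases differ between the lines, and no stretch of more than 7 bases is common to any pair of these 4:
Probe named PON1, O12638: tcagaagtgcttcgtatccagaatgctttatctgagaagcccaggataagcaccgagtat
PON3, A_72_P385478: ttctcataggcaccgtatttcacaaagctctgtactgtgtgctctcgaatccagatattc
PON1, A_72_P035606: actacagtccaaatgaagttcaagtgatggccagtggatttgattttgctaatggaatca
PON2, A_72_P538923: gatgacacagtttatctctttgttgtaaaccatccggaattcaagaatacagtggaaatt

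PON2 moved the other way and by less. Its 4 probes gave log2 fold-changes of -0.52 (P-BH = 0.007), -0.54 (P-BH = 0.165), -0.59 (P-BH = 0.0452) and -0.47 (P-BH = 0.0413), so that 3 of 4 passed in limma. The first and last of these share 57 of 60 bases. With slide as a block only the first passed, and the last 2 had P-BH = 0.0594 and 0.0706. On the brightest one (O9320), the 4 high RFI pigs with a PON3 signal close to that of the low RFI line were also the 4 lowest of their line. On the other PON2 probes the main gap between high RFI pigs did not set these 4 apart.

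**Figure D2:**
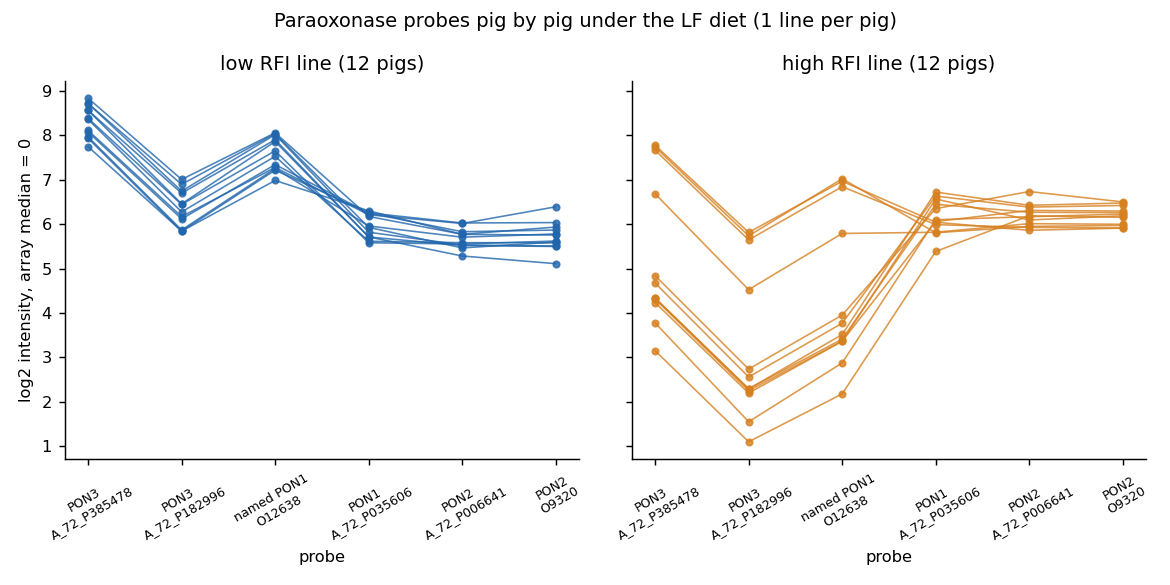
Log2 intensity (y axis, array median at 0) of 6 paraoxonase probes (x axis), with 1 connected line per pig, for 12 low RFI pigs (left) and 12 high RFI pigs (right) under the LF diet. In the high RFI line, 8 pigs fall together on the PON3 probes and on O12638, 4 pigs do not, and the RefSeq-named PON1 probe stays between 5.39 and 6.72.

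Beyond these, the genes with the largest rise in the low RFI line were PGC, SLC7A9, COL21A1, SLC35F3, GFRA2, RPL38, ADCY4, IYD, SEPHS1 and TRAF5. PGC encodes the stomach proenzyme progastricsin. Its probe O11323 ranged from 2.60 to 5.43 (median 4.20) in low RFI pigs and from 0.94 to 3.55 (median 2.26) in high RFI pigs. The ranges overlapped by part of their width, and the log2 fold-change was 1.81 (SE 0.309, P-BH = 0.0036), as on a second probe that carries the gene ID of PGC (1.81, P-BH = 0.00327). IYD, which removes iodine from iodotyrosines so that it can be used again, ranged from 1.83 to 3.47 (median 2.61) against 0.78 to 2.50 (median 1.35). All 3 of its probes rose, by 1.08 to 1.17 on the log2 scale (P-BH = 0.003 to 0.00365). They are not separate measurements, because the probe not shown also shares 25 bases with O1550 and 33 with A_72_P035341. Both IYD probes below give 1 measurement for the most part, since they share the 45 bases in capitals:
IYD, O1550: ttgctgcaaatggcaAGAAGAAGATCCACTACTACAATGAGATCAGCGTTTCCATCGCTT
IYD, A_72_P035341: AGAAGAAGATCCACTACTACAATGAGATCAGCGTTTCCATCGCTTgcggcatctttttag

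SLC7A9, the light chain of a cystine and dibasic amino acid transporter, ranged from 0.89 to 2.65 (median 1.40) in the low RFI line and from -1.96 to 1.85 (median 0.45) in the high RFI line. Most high RFI pigs were below the low RFI pigs, with overlap at the top. All 3 SLC7A9 probes passed (log2 fold-changes of 1.60 to 1.68, P-BH = 0.0346 to 0.0488). GFRA2, a co-receptor for neurturin, is a dim gene whose lines did not overlap: -2.42 to -0.18 (median -1.57) against -3.68 to -2.47 (median -2.89), for a log2 fold-change of 1.41 (SE 0.219, P-BH = 0.00146). With normexp background correction the value was 0.60, and its second probe gave 0.01. Calpastatin (CAST), the inhibitor of the calpain proteases, rose on 5 of 6 probes at a P-BH of 5%, and all 6 lay between 0.64 and 1.05. The flagellin receptor TLR5 rose by 0.95 on the log2 scale (SE 0.119, P-BH = 1.63e-04), with 11 of 12 low RFI pigs above every high RFI pig. Its chromosomal neighbour SUSD4, a complement inhibitor, rose by 0.97 (P-BH = 0.00589).

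Other rises were uneven between probes of a gene. ADCY4, an adenylate cyclase, ranged from 0.06 to 2.07 (median 1.26) against -0.43 to 0.25 (median -0.05), with a log2 fold-change of 1.20 (SE 0.168, P-BH = 5.0e-04), but its other probes gave 0.29 (P = 0.00334) and 0.03. The ribosomal protein gene RPL38 gave 1.29 (P-BH = 0.0171) on one probe and -0.10 on the brighter one, and COL21A1, a collagen chain, gave 1.57 (P-BH = 0.0291) on its dimmest probe, 1.84 (P = 0.00189, P-BH = 0.127) on another and 0.01 on its brightest. SLC35F3 gave 1.45 (P-BH = 0.0207) and 1.32 (P-BH = 0.0599) on 2 probes and -0.02 on another. SEPHS1, a selenophosphate synthetase, and the signalling adaptor TRAF5 both gave 1.06, but their probes were above background in only 3 and 6 of 12 high RFI pigs. They were thus tested mainly through the low RFI line, in which they are high. With normexp background correction they were no longer called (0.15, P-BH = 0.523, and 0.19, P-BH = 0.422), and neither was COL21A1 (0.36, P-BH = 0.1).

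Among the genes with the largest fall were NRN1, PDZK1IP1, OAZ3, PNOC, PLEC, TEX12, PARVG, ADAM28, WDHD1 and SULT1A3. NRN1 encodes neuritin, a membrane-anchored protein known from neurons. On probe O10354 low RFI pigs ranged from -1.90 to 1.21 (median -1.12) and high RFI pigs from -0.42 to 4.49 (median 2.66). Of the high RFI pigs, 9 of 12 lay above every low RFI pig. The log2 fold-change was -3.13 (SE 0.512, 8.74-fold lower, P-BH = 0.0024), and a second probe gave -3.36.

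PLEC, the cytoskeletal linker plectin, gave the smallest P of all probes and the cleanest separation of a named gene. Low RFI pigs spanned -1.45 to -0.93 (median -1.33) and high RFI pigs -0.30 to 0.83 (median 0.11). There was no overlap, and the log2 fold-change was -1.48 (SE 0.114, P-BH = 6.38e-08). Only 8 of 42862 probes (0.0187%) had lines that did not overlap, and 4 of these were named: PLEC, GFRA2, a PON3 probe and PARVG, an actin-binding parvin. PARVG spanned -4.041 to -2.555 against -2.545 to -1.147, a gap of 0.0095, and fell by 1.32 on the log2 scale (SE 0.181, P-BH = 3.82e-04). This probe is dim, and with normexp it fell by 0.58.

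**Figure D3:**
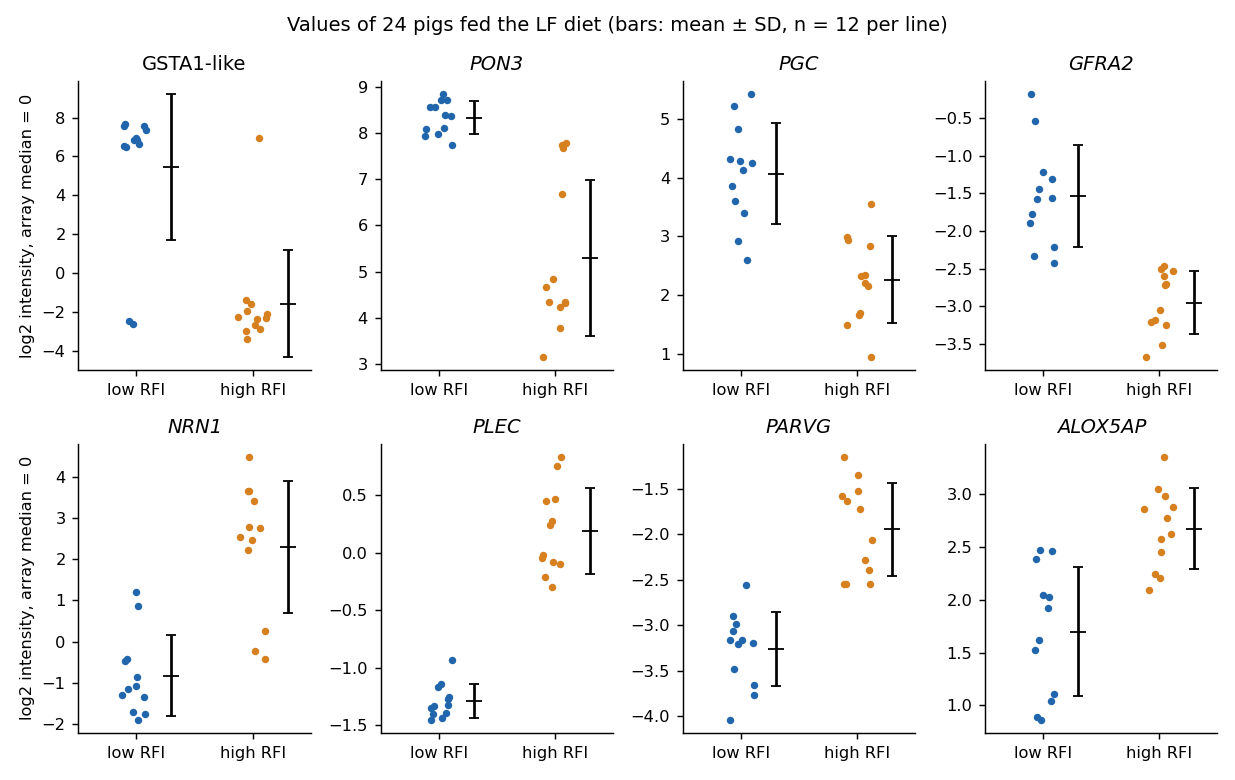
Log2 intensity (y axes, array median at 0, 1 scale per panel) of each of 24 pigs under the LF diet for 8 loci, with 12 points per line and bars for the mean ± SD. GSTA1-like, PON3 and NRN1 split within a line, whereas PLEC, PARVG and GFRA2 have lines that do not overlap.

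Several enzymes and their partners were under-expressed on all of their probes. The sulfotransferase SULT1A3, named SULT1A1 on the array, was bright. It ranged from 5.69 to 7.75 (median 6.90) in low RFI pigs and from 6.79 to 8.65 (median 8.03) in high RFI pigs. It fell on all 3 probes, by 1.03 to 1.07 on the log2 scale (P-BH = 0.0061 to 0.00922), and probes cannot always tell members of this family apart. ALOX5AP, which presents arachidonic acid to 5-lipoxygenase for leukotriene synthesis, ranged from 0.86 to 2.47 (median 1.77) against 2.09 to 3.35 (median 2.70). The lines overlapped in a narrow band, and all 5 probes fell (-0.98 with SE 0.198 and P-BH = 0.0139 on the brightest). These are at most 3 measurements, because 2 pairs of the probes have identical sequences. The peroxidase PRDX1 fell by 0.62 and 0.63 on the log2 scale (P-BH = 0.0178 and 0.0111), and the lysosomal carboxypeptidase PRCP by 0.49 and 0.51 (P-BH = 0.00504 and 0.00351).

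OAZ3, an antizyme of the polyamine pathway best known from the testis, ranged from -2.15 to 0.77 (median -1.44) against -1.66 to 1.44 (median 0.87). The lines overlapped widely, and the log2 fold-change was -1.73 (SE 0.401, P-BH = 0.0392). The sequence is shown because 2 of its 3 probes hold the same 60 bases and are 1 measurement printed on the array under 2 names:
OAZ3, A_72_P437459 and O3277: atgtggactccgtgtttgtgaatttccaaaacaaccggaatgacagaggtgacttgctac

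The remaining large falls rested on single probes or rather wide spreads. PDZK1IP1, a small membrane protein that binds PDZ domains, ranged from -3.92 to -0.85 (median -3.25) against -3.65 to 1.56 (median -0.24), for a log2 fold-change of -2.51 (P-BH = 0.00919). It gave -1.43 with normexp, and its other probe gave -0.06. PNOC, the precursor of the neuropeptide nociceptin, spanned -1.90 to -1.23 in the low RFI line and -1.93 to 1.48 in the high RFI line (log2 fold-change -1.49, P-BH = 0.0284). TEX12 (-1.43, P-BH = 0.0392), the metalloprotease-family gene ADAM28 (-1.12, P-BH = 0.0435) and the replication factor WDHD1 (-1.08, P-BH = 0.0346) had a P-BH closer to 5%, and each lost its call in at least 2 alternative settings.

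Probes of a gene often disagreed. Of the 90 genes called, 28 had 1 probe and 62 had more. In 44 of these 62 all probes went in the same direction, in 11 all passed a P-BH of 5%, and for 6 genes the brightest probe lay within 0.1 of 0. UQCRB, a subunit of respiratory complex III, fell by 0.72 on the log2 scale on probe O2995 (low RFI 3.63 to 4.61, high RFI 4.60 to 5.05, P-BH = 2.25e-04), whereas its 7 other probes lay between -0.05 and 0.04. The mitochondrial chaperonin HSPE1 fell by 0.74 on probe O8477 (P-BH = 0.0332) and lay between -0.13 and 0.10 on 5 others. Such genes are given by probe. Whether their probes read different transcripts or alleles was not tested.

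The groups of genes below were read with 1 probe per gene and the cut-offs of the study, which called 1.76% of the 10101 genes up and 1.66% down. Most immune genes were lower in the low RFI line under LF, while few of them passed, and for several lists this was not so under HF. Of 34 interferon-stimulated genes measured, 31 were lower and 3 higher in the low RFI line, with a median log2 fold-change of -0.32. Under HF, 10 of the 34 were lower and the median was 0.11. Only 1 of them was called, the antiviral membrane protein BST2 (-0.70, P = 0.00277, P-BH = 0.154). The mean of the list per pig, with each gene centred over the 24 pigs, ran from -0.94 to 1.72 (median -0.47) in low RFI pigs and from -0.45 to 1.70 (median -0.15) in high RFI pigs, so both lines held pigs with very high values. The antiviral gene MX1 (-0.07, P-BH = 0.991) spanned 4.30 to 8.37 and 3.01 to 8.98.

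Of 22 genes of MHC class I presentation, which displays peptides to T cells, 19 were lower and 3 were called, all down: HLA-B as named on the array (-1.16, P-BH = 0.0618), the immunoproteasome subunit PSMB8 (-0.83, P-BH = 0.218) and SLA-8 (-0.62, P-BH = 0.165). The 4 SLA-8 probes disagreed, with 2 lower and 2 higher, between -0.62 and 0.70. Under HF the median of the list was -0.07, with 16 genes lower. A probe described as MHC class I antigen but without a symbol, chosen after its values were seen, passed a P-BH of 5%. It ranged from -2.84 to 3.16 (median 1.096) against 2.07 to 4.14 (median 2.83), with a log2 fold-change of -2.69 (SE 0.572, P-BH = 0.0207). MHC genes differ in sequence between pigs, and whether the probes bind the alleles of both lines equally was not tested. None of 16 MHC class II genes was called (14 lower, median -0.13), and under HF 7 were lower (median 0.02).

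Of 13 Kupffer cell and macrophage markers, 11 were lower, with a median of -0.29, and 2 were called: the growth factor receptor CSF1R (-0.34, P = 0.002) and the complement receptor VSIG4 (-0.29, P = 0.00391). The mean of these markers ran from -0.56 to 0.30 in low RFI pigs and from -0.27 to 0.64 in high RFI pigs. The most abundant of them, CD5L, lay at 8.44 ± 0.22 (SD, n = 12) against 8.26 ± 0.22 (n = 12). All 13 were above background on every LF array. T and NK cell markers (7 higher, 9 lower of 16, none called) had a median of -0.11. Under HF the medians were -0.06 for the macrophage and -0.08 for the T and NK cell markers. In bulk liver, fewer cells of a type and less RNA per cell cannot be told apart. The macrophage markers were lower in the same line as the immune genes above and ALOX5AP, a gene of myeloid cells. In 1 low RFI pig the interferon mean was the highest (1.72) and the macrophage mean the lowest (-0.56). A single pig cannot show how these means relate, and their relation over the 24 pigs was not tested. The part of macrophages in these results was not tested either.

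In NF-kappaB and TNF family signalling, 15 of 21 genes were lower, and calls went both ways, with TRAF5 (1.06) and TRAF6 (0.79, P-BH = 0.28) up and 3 genes down, among them TNFSF13B (-0.61, P-BH = 0.118) and the inhibitor NFKBIE (-0.31, P-BH = 0.161). Of 25 complement genes, 22 were lower (median -0.10), with CFP (-0.37, P-BH = 0.142) and CLU (-0.33, P-BH = 0.244) called down. C8A, a chain of the membrane attack complex, was called up, at 8.12 to 8.61 against 7.58 to 8.31 (0.38, SE 0.069, P-BH = 0.00605), but its other probe gave 0.02. Of 19 acute phase genes 13 were lower, and APCS, serum amyloid P, was called down (-0.84, P-BH = 0.209) on its bright probe and lay at 0.85 (P-BH = 0.409) on a dim one, above background in 9 low and 4 high RFI pigs. Under HF, 6 of the 19 were lower (median 0.01).

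Among metabolic groups, peroxisomal oxidation, which shortens long and branched fatty acids, had 3 of 24 genes called up and none down (16 higher, median 0.09). These were the thioesterase ACOT4 (0.84, SE 0.188, P-BH = 0.0294), the oxidase ACOX3 (0.30, P-BH = 0.113) and the carnitine transferase CROT (0.47, P-BH = 0.142). ACOT4 ranged from 0.57 to 1.97 against -0.15 to 1.66. Of 28 antioxidant genes, 24 were lower (median -0.05), and the calls were down for PRDX1 and the plasma glutathione peroxidase GPX3 (-0.68, P-BH = 0.13). Of 18 genes of reverse cholesterol transport and HDL, 9 were higher and 9 lower, and the calls were PON3 up and PON2 down. FAAH, which degrades fatty acid amides such as anandamide, ranged from 3.16 to 3.52 against 2.56 to 3.35 and rose by 0.45 on the log2 scale (SE 0.0706, P-BH = 0.00166), with 2 of 3 probes passing.

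Single genes were called in other groups: the phospholipid exporter ABCB4 (0.38, P-BH = 0.256), the glycogen branching enzyme GBE1 (0.62, P-BH = 0.0922, second probe 0.08), the pericyte gene RGS5 (1.28, P-BH = 0.11) and the insulin receptor adaptor GRB14 (0.18, P-BH = 0.261) up, and CYP3A29 (-0.42, P-BH = 0.172), the retinoic acid hydroxylase CYP26A1 (-0.80, P-BH = 0.212) and the replication gene GINS2 (-0.35, P-BH = 0.102) down. At these cut-offs no gene was called by its brightest probe among 23 genes of mitochondrial fatty acid oxidation and ketogenesis (median 0.07), 18 of de novo lipogenesis (0.01), 19 of cholesterol synthesis and uptake (0.07), 30 of amino acid breakdown and the urea cycle (0.06), 71 cytosolic ribosomal proteins (0.02), 30 proteasome subunits (0.00), 67 respiratory chain and ATP synthase subunits (0.01), 31 genes of endoplasmic reticulum stress (0.03), 15 of coagulation (0.00) and 12 of the circadian clock (-0.08). When any probe of a gene counted, 4 ribosomal protein genes were called up and 1 down. For the respiratory chain these counts were 1 up and 2 down, and for the proteasome 1 up and 1 down. Mitochondrial fatty acid oxidation then had 1 up, and endoplasmic reticulum stress 1 down.

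**Figure D4:**
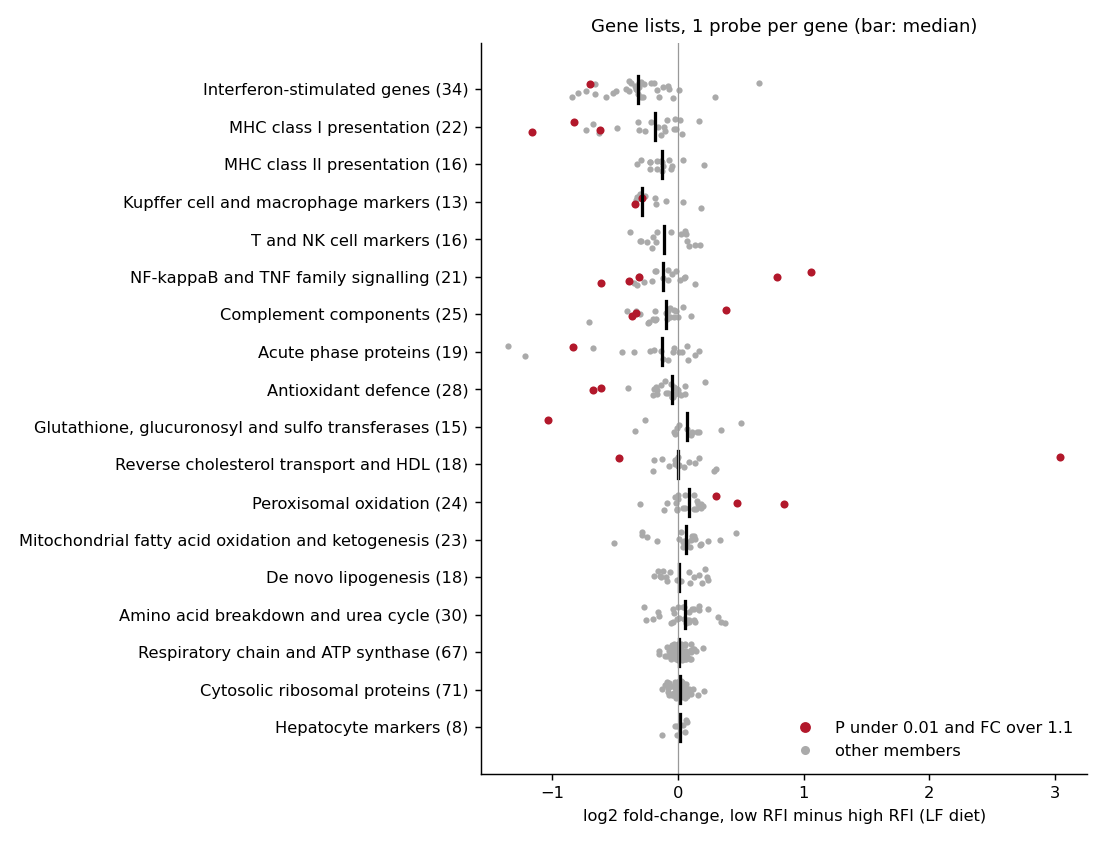
Log2 fold-change under the LF diet (x axis, low minus high RFI line) of each measured gene of 18 lists (number measured in brackets), with the median as a bar and genes at P under 0.01 and FC over 1.1 in red. Most of the interferon, MHC and macrophage genes lie left of 0, and few points are red.

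The HF-fed pigs are other animals of the same lines and serve as a second reading. Of the 294 DEP found under LF, 292 had the same sign under HF. Of these DEP, 177 (60.2%) met P under 0.01 and FC over 1.1 there, all with the same sign, when 3.68% of all tested probes met these cut-offs under HF. Over all 42862 probes, 26540 (61.9%) had the same sign in both diets. The LF value was the larger for 244 of the 294, and 1260 of the 1577 probes called under HF were larger under HF, so values were larger in whichever diet had been used to choose the probes.

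Several loci were close to equal between diets. PLEC had a log2 fold-change of -1.48 under LF and -1.48 (P = 7.55e-10) under HF, PARVG -1.32 and -1.29, TLR5 0.95 and 0.98, and NRN1 -3.13 and -2.68. Others were smaller under HF. PON3 gave 1.85 (SE 0.643, P = 0.0081) under HF, PGC 0.83 (P = 0.171), IYD 0.43 (P = 0.187), PNOC -0.53 (P = 0.127) and PDZK1IP1 -0.98 (P = 0.0086). The GSTA1-like signal was at its high level in 7 of 12 low RFI and 2 of 12 high RFI pigs under HF (log2 fold-change 4.04, P = 0.0213).

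**Figure D5:**
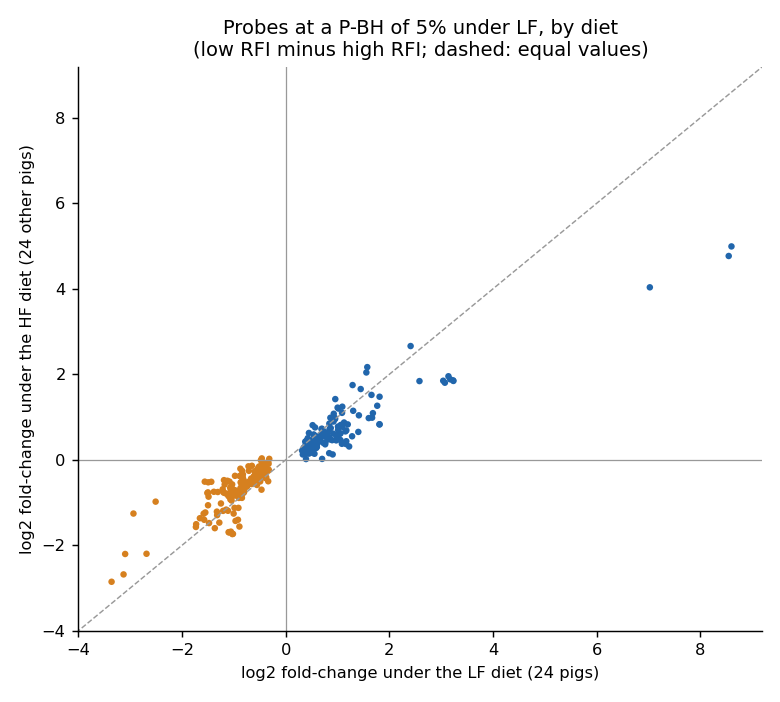
The 294 probes at a P-BH of 5% under LF, with the log2 fold-change (low minus high RFI line) in 24 LF pigs on the x axis and in 24 HF pigs on the y axis. Points right of the dashed line of equal values on the positive side, and left of it on the negative side, are larger under LF: 244 of 294, with 292 of the same sign.

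The difference between diets was tested directly with the interaction of line and diet in all 48 pigs. No probe passed a P-BH of 5% (0% of 42862, smallest P-BH = 1.0, limma), and 993 probes (2.32%) had an unadjusted P under 0.05. The smaller HF values of PON3 (interaction P = 0.154), PGC (P = 0.157), IYD (P = 0.0396 to 0.0631 on 3 probes), PNOC (P = 0.0508), PDZK1IP1 (P = 0.0154) and the GSTA1-like locus (P = 0.169) were thus not shown to differ from the LF values after adjustment. The named gene with the smallest interaction P was PDLIM1, an actin-associated adaptor, which was 0.34 under LF and -0.48 under HF (P = 8.8e-05 before adjustment). All 4 of its probes had opposite signs in the diets. The gene was picked by its interaction P and the probes read the same pigs, so this is no separate support. TMC7 (0.56 and -0.55), PRDM8 (0.34 and -0.33), the drug exporter ABCB1 (0.43 and -0.21) and IGFBP1 (0.16 and -0.47), an insulin-suppressed binding protein for growth factors, followed. In the other direction were CD1D (-0.46 and 0.03), the transcription factor TBX3 (-0.44 and 0.31), the mitochondrial carbonic anhydrase CA5A (-0.14 and 0.26), GPC4 (-0.38 and 0.15) and BAIAP2 (-0.21 and 0.19).

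The arrays lay on 6 slides, each with 2 pigs per line and diet, and were scanned on 2 days, with 6 LF pigs per line on each day. All 294 DEP had the same sign on both days. They were called on these same arrays, so this agreement is no independent check. The log2 fold-change of PLEC was -1.46 and -1.50 on the 2 days, that of PON3 3.09 and 2.99, and that of the GSTA1-like probe 7.88 and 6.18. The size was less even for SLC7A9 (0.98 and 2.38), PGC (1.36 and 2.26) and PNOC (-0.75 and -2.23).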

How the data were processed

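Liver RNA was measured on 1-colour Agilent arrays, 1 per pig. The authors deposited scanner output (Feature Extraction 10.7.3.1) with spot intensities, not normalized between arrays, and a table of log2 values. Each column of that table has a median of 0 over 37379 probes and differs from the log2 median signal by a constant. R 2.10.0 stands in the submitters' processing notes.

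Here, log2 of the background-subtracted intensity was centred on the median of each array. Control spots were left out, 324 outlier spots on LF arrays were set missing, and 0 spots were saturated. Probes well above background on at least 12 of the 24 LF arrays were tested (37319 of 42862 on all 24). Dim probes and the number of arrays limit the precision. Columns of samples outside the series numbered 0.

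Lines were compared with limma 3.58.1 in R 4.3.3 (24 LF arrays, no covariates). The fit was tested on simulated data with normal errors, which does not check it for values that split within a line. The authors' methods fit line, diet and interaction on all arrays, which was run as an alternative. The HF lines were fitted likewise, and the interaction with 4 groups on 48 arrays. P-BH is over all tested probes. Alternatives were ANOVA, other centring, background, filters, slide and scan day.

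Gene symbols came from RefSeq (Sscrofa11.1) for 6966 probes and from the array for 16905, and 36435 stayed unnamed. In lists, the probe of highest mean signal stands for a gene. Genes were named by a rule: the 12 largest rises and 12 largest falls at a P-BH of 5%, genes whose lines do not overlap, the 5 smallest interaction P per direction, list members called (or, with none, those of smallest P), and PON1, PON2, PON3, NRN1 and OAZ3. CAST, TLR5, SUSD4, UQCRB, HSPE1, PRCP, MX1, LGALS8, CCL3L1, RTN3 and CYP1A2, and probes without a symbol, were chosen after their values were seen. The members and lists were chosen with earlier results of these data known. Some genes within the rule are not reported here.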

Additional observations from a re-analysis of the deposited data

How the results depend on the processing

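Over the 13 settings that used all LF arrays, 211 to 348 probes passed a P-BH of 5% (294 as reported) and 1274 to 1695 met the cut-offs of the study (1505 as reported). With 6 pigs per line, the first scan day alone gave 5 and 711 probes and the second 37 and 862. The interaction gave 0 probes in every setting run. Of 844 measured list genes, 46 were called by the brightest probe, 63 by the mean over probes, 84 when any probe counted and 16 at a P-BH of 5%. Of 53 followed probes called at a P-BH of 5%, 33 kept the call in every one of these settings that tested them. The other 20 lost it in at least 1. Besides named genes, the 53 include probes without a symbol, picked with their values already known. All probes without a symbol kept the call and all 20 losses fell on named genes. The share of named genes that kept the call was thus lower. PLEC, PON3, NRN1, GFRA2, PARVG, IYD, ADCY4, SULT1A3, ALOX5AP and the GST alpha probes kept it where they were tested. PGC (P-BH = 0.0541 in the 48-array model), PNOC (highest P-BH = 0.0573), SLC7A9 (0.0676) and the OAZ3 probes of identical sequence (0.0742 and 0.0798) lost it in 1 or 2, the remaining OAZ3 probe in 8 (0.0857), a pair of PON2 probes in 4 (0.0881) and 3 (0.086), and PIKFYVE in 3 (0.0623). Without background subtraction or with normexp, dim probes gave smaller values: with normexp GFRA2 gave 0.60, SLC35F3 0.82, PDZK1IP1 -1.43 and ADAM28 -0.53, all still called. No direction turned. No paired analysis was run because each array holds a different pig and the labels give no pairs. All titles carry the same replicate number, beside a number of their own.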

Other observations

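Among probes without a symbol, chosen after their values were seen, the clearest was one described as an unknown transcript (A_72_P304024). Low RFI pigs spanned -0.44 to 0.24 (median 0.02) and high RFI pigs -2.88 to -0.79 (median -1.82). The lines did not overlap, and the log2 fold-change was 1.77 (SE 0.167, P-BH = 2.34e-06, limma), against 1.26 in HF pigs. With normexp background correction it was 1.097. A pair of dim probes for the homolog of C9orf135 gave 1.81 (P-BH = 8.2e-04) and 1.66 (P-BH = 0.00396). They were above background in 11 low RFI pigs each and in 3 and 7 high RFI pigs. They were thus tested mainly through the line in which they are high, so no support is drawn from their P-BH. With normexp their values were 0.36 and 0.46.

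LGALS8, a galectin that marks damaged endosomes, was under-expressed on 4 of 5 probes at a P-BH of 5%. Its brightest probe fell by 0.42 on the log2 scale under LF (P = 3.1e-05) and lay at -0.12 under HF (P = 0.169), and the interaction did not pass adjustment (unadjusted P = 0.0131). The endosomal lipid kinase PIKFYVE gave -0.63 (P-BH = 0.0322) on its brighter probe, which lost the call with slide as a block (P-BH = 0.0623), and -0.19 on the other. The chemokine CCL3L1 rose by 0.62 (P-BH = 3.82e-04) on its brighter probe and lay at -0.03 on the other, and RTN3, a reticulon of the endoplasmic reticulum, rose by 0.44 (P-BH = 8.2e-04). CYP1A2 was over-expressed on a dimmer probe (0.87, P-BH = 0.00953) and lay at -0.89 (P-BH = 0.41) on its brighter one.

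Of the lists not described above, none of 11 endothelial, 7 cholangiocyte, 5 red cell, 5 neutrophil or 4 B cell markers met P under 0.01 and FC over 1.1, and neither did any of 9 glycoprotein genes taken from the study (8 higher). Of 31 collagens and matrix genes, COL4A2 was called up (0.29) and TGFBR1 down (-0.48). Of 18 top-ranked line genes of the study, 5 were called up and 4 down. The study chose those genes on these samples, so their counts are not independent evidence.

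Of the 90 genes called, 84 could be placed in the RefSeq gene order among 9047 tested genes. By probe name there were 4 adjacent pairs: DST with COL21A1, PON1 (through the probe that followed PON3) with PON3, PON3 with PON2, and TLR5 with SUSD4. PON1 is among the 90 genes only through that probe. With the probe read as PON3, as above, the pair of PON1 with PON3 falls away. How many pairs random placement would give was not worked out.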
